A study of Homo sapiens with 6 samples.

Results

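Mitochondrial ribosomal protein mRNAs code for the proteins of the mitochondrial ribosome, and they were taken as the genes whose symbol begins with MRPL or MRPS followed by a digit. Of 92 symbols with that beginning, 15 pseudogenes and 1 antisense RNA were left out, which gave 76 mRNAs among the 23013 genes with values. MRPL symbols numbered 47 and stand for the large subunit, and MRPS symbols numbered 29 and stand for the small subunit. The rule reads the symbols alone and no measured value, but it was chosen with earlier results of these data known. A mean of at least 10 normalised counts (read counts divided by 1 size factor per library) over the libraries was reached by 74 of the 76, namely 46 MRPL and 28 MRPS mRNAs. The mRNAs that missed it were MRPL30, at 0 to 7.88 normalised counts, and MRPS24, at 1.49 to 17.4 normalised counts.

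The mitochondrial ribosome translates the few mRNAs of the mitochondrial genome, which code for core subunits of the respiratory chain and of ATP synthase. Its rRNAs come from mitochondrial DNA, whereas all its proteins are encoded in the nucleus, translated in the cytoplasm and imported. It has more protein and less rRNA than its bacterial relatives, and many of its proteins have no bacterial counterpart.

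To identify RNAs held by ORC1, part of the complex that recognises replication origins in the genome, the study performed native RNA immunoprecipitation and sequencing (RIP-seq) on nuclei of HCT116 cells. HCT116 is an established human colorectal cancer line. The cells of every library were untreated and dividing without synchronisation. The groups differed in the immunoprecipitation as a whole, that is in the antibody, the capture on beads and the washes. Nuclear lysate without antibody gave the 3 input libraries, and an anti-ORC1 antibody gave the 3 ORC1 IP libraries, with RIP replicate numbers 1 to 3 in each group. No library from a control antibody was analysed here, so the background of the immunoprecipitation was not measured for any mRNA.

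The libraries held 13703033 to 17248924 reads on genes as inputs and 25134156 to 36008733 as ORC1 IPs. Of 9 epithelial markers 8 had values, KRT8 at 6930 to 82363 and EPCAM at 1656 to 4516 normalised counts, while VIL1 stayed at 0 to 6.30 and CDX1 was not analysed here. Among 6 markers of other cell types, ALB lay at 0 to 6.97 normalised counts, COL1A1 at 161 to 787, and PTPRC, CD3E, COL1A2 and PECAM1 were not analysed here. Together the measured markers of other cell types held 7.44 to 16.5 RPM in the inputs and 14.3 to 32.7 in the ORC1 IPs. ORC1 IP 2 stood apart from the other libraries. The nuclear RNAs MALAT1 and NEAT1 together held 8287 RPM (reads per 1000000 reads on genes) there, against 451 and 954 in the other ORC1 IPs and 837 to 1984 in the inputs, so results that rest on it are given with and without it.

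Mitochondrial ribosomal protein mRNAs were mostly lower in ORC1 IP than in input. The median log2 fold change of the 74 tested mRNAs was -0.72, with a range of -1.85 to 0.99, whereas the median of all 16513 tested genes was 0.01. Of the 74, 65 lay below 0 (87.8%), against 49.3% of all tested genes. MRPL49, MRPL54, MRPL14 and MRPL15, all of the large subunit, were called lower, and no mRNA was called higher (limma, Benjamini-Hochberg adjusted p under 0.05). Calls of lower genes made up 1.42% of all tested genes and calls of higher genes 2.28%. A read share is relative to all other RNA in the same library. Less of these mRNAs and more of other RNA in the ORC1 IPs therefore cannot be told apart. The libraries are bulk, so recovery with ORC1 from fewer cells and less recovery per cell cannot be told apart either.

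**Figure D1:**
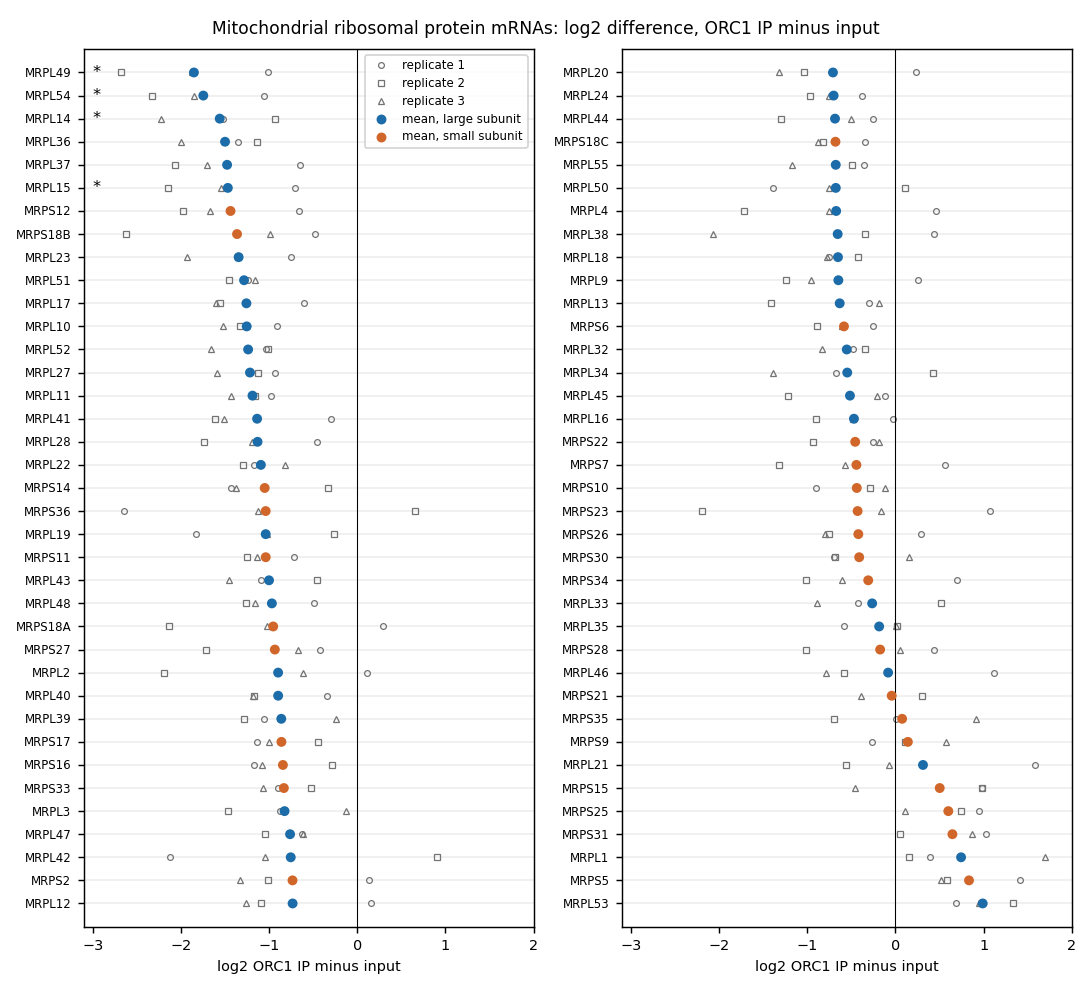
Log2 difference between ORC1 IP and input (x axis, log2 of normalised count + 1) for the 74 tested mitochondrial ribosomal protein mRNAs, sorted from lowest to highest. Filled points are means over 3 libraries per group for the large (blue) and small (orange) subunit, open symbols are the differences within replicates 1, 2 and 3, asterisks mark the 4 called mRNAs, and 65 of the 74 means lie left of 0.

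The 4 called mRNAs had values that did not overlap between the groups. MRPL49, a mitochondria-specific protein of the large subunit (ENSG00000149792, chr11:65122183-65127371 on the plus strand in GENCODE v44 on GRCh38), was counted at 2564, 5644 and 3998 in inputs 1 to 3 and at 1272, 882 and 1091 in ORC1 IPs 1 to 3 (normalised counts). The lowest input thus held more of it than the highest ORC1 IP, which made a difference of -1.85 ± 0.41 on the log2 scale (SE, n = 3 per group, limma adjusted p = 0.0314), a 3.61-fold lower level in ORC1 IP.

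MRPL54, also specific to mitochondria (ENSG00000183617, chr19:3762682-3768575, plus strand), was counted at 467, 864 and 756 in the inputs and at 225, 171 and 208 in the ORC1 IPs. The ORC1 IPs lay close together and below every input, 3.36-fold lower on average (log2 fold change -1.75 ± 0.36 SE, limma adjusted p = 0.0261).

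MRPL14, the counterpart of a bacterial protein at the face of the large subunit that meets the small one (ENSG00000180992, chr6:44113451-44127452, minus strand), had 780, 1062 and 1411 normalised counts in the inputs and 272, 554 and 301 in the ORC1 IPs. ORC1 IP 2 was the highest of its group for this mRNA and still lay below input 1. The log2 fold change was -1.56 ± 0.39 (SE, limma adjusted p = 0.0480).

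MRPL15 (ENSG00000137547), another protein with a bacterial counterpart, had 1077, 1811 and 1612 normalised counts in the inputs and 657, 408 and 552 in the ORC1 IPs. Input 1 was the lowest input and ORC1 IP 1 the highest ORC1 IP, as for MRPL49 and MRPL54. Its log2 fold change was -1.47 ± 0.36 (SE, limma adjusted p = 0.0471). With the replicate number as a block, the adjusted p of MRPL15 was 0.0684 in limma, while MRPL49, MRPL54 and MRPL14 remained called (1.16% of all tested genes were called lower in that fit).

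These calls lay near the threshold. Without input 2, input 3 or ORC1 IP 3 limma called 0 of the 74 mRNAs, where 0.236%, 0.139% and 0.139% of all tested genes were called lower, and 22, 21 and 27 of the mRNAs were lower at an unadjusted p under 0.05. Without ORC1 IP 1 limma called MRPL49 and MRPL54 (0.721% of all tested genes), and without ORC1 IP 2 it called 21 (6.38% of all tested genes). With transcript GC content and length removed from the log2 values, the log2 fold change of MRPL54 was -0.97 and limma called none of the 72 mRNAs with these properties and 0.218% of all tested genes lower. The smallest adjusted p of a lower mRNA was then 0.0617 (MRPL49), and at an unadjusted p under 0.05 there were 33 lower mRNAs and 1 higher. The shares of all tested genes in this paragraph are of calls at an adjusted p under 0.05. At an unadjusted limma p under 0.05 such a share is given for the main fit alone (9.45% lower, 12.2% higher).

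**Figure D2:**
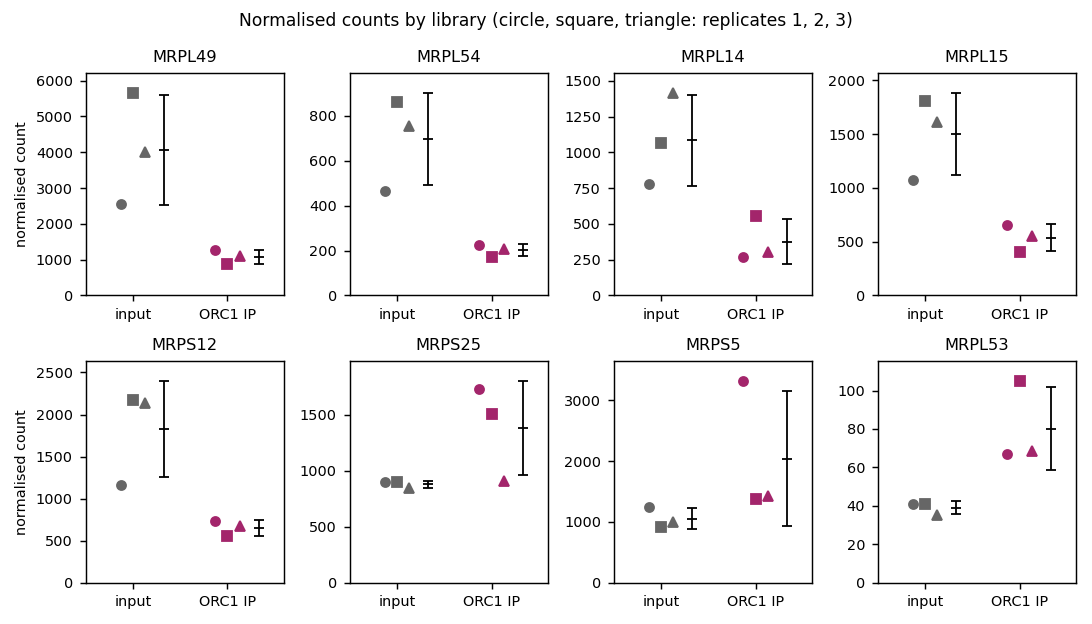
Normalised counts (y axis, linear, from 0) in the 3 inputs (grey) and 3 ORC1 IPs (magenta) for the 4 called mRNAs, for MRPS12 and for the 3 mRNAs whose ORC1 IPs all lay above their inputs. Circles, squares and triangles are replicates 1, 2 and 3, black bars are the mean ± SD, and the groups do not overlap in any of the 8 panels.

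By weaker criteria more of the mRNAs stood below input. An unadjusted p under 0.05 was reached by 29 of the 74 with lower values (9.45% of all tested genes) and by 1, MRPL53, with higher values (12.2% of all tested genes). For enriched RNAs the study required a log2 fold change over 1 and a p under 0.05, from DESeq2. With the same limits on the limma values used here, this held for 0 mRNAs (10.9% of all tested genes). The mirror image, a log2 fold change under -1 with such a p, held for 22 (7.25% of all tested genes). All 3 ORC1 IPs lay below all 3 inputs for 42 mRNAs, against 13.5% of all tested genes. All 3 lay above for 3, MRPL53, MRPS5 and MRPS25, against 12.7% of all tested genes.

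Within replicates 1, 2 and 3 the median log2 difference of the 74 mRNAs was -0.44, -1.01 and -0.88, and 52, 60 and 64 of them were below 0. Of all tested genes 50.2%, 49.7% and 47.9% were below 0 in the same replicates. The mRNAs were lower in every replicate for 43 of the 74 (19.2% of all tested genes) and higher in every replicate for 5 (19.8% of all tested genes). The replicates did not rank the mRNAs alike. Across the 74, Spearman's rho of the log2 differences was 0.05 between replicates 1 and 2, 0.52 between 1 and 3 and 0.36 between 2 and 3, where the mRNAs share the same libraries and are no independent replicates. Across all tested genes these values were -0.06, 0.53 and 0.38.

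Taken as a sum, the 76 mRNAs held less of every ORC1 IP than of any input. They summed to 4452, 4808 and 5384 RPM in the inputs and to 2314, 3446 and 2237 in ORC1 IPs 1 to 3. The means were 4881 ± 470 and 2665 ± 677 RPM (SD, n = 3), a ratio of 0.546, and the ratio within replicates was 0.520, 0.717 and 0.415. The ratio was 0.466 without ORC1 IP 2. The mRNAs of ACTB, GAPDH and TUBA1B, used here as markers of abundant cytoplasmic mRNA, together held 4533 to 6304 RPM in the inputs and 1910 to 3624 in the ORC1 IPs, and the epithelial markers 2750 to 6496 and 1241 to 4853. The cytoplasmic marker sum was lower in ORC1 IP in each replicate, whereas the epithelial sums of the groups overlapped and the ratio in replicate 1 was 1.76. Their part in the result was not tested.

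The large subunit stood lower than the small one. Its 46 tested mRNAs had a median log2 fold change of -0.79, 43 of them below 0, and replicate medians of -0.59, -1.14 and -1.10. The 28 tested MRPS mRNAs had a median of -0.45, 22 of them below 0, and replicate medians of -0.25, -0.73 and -0.61. All 3 ORC1 IPs lay below all 3 inputs for 30 MRPL and 12 MRPS mRNAs. As a sum, MRPL mRNAs had 0.474 times and MRPS mRNAs 0.651 times the input level in ORC1 IP. The MRPL sum had the lower ratio in each replicate, with 0.423, 0.662 and 0.350 against 0.662, 0.796 and 0.511. The difference between the subunits was not tested. Limma called 4 MRPL and 0 MRPS mRNAs, and 22 MRPL and 7 MRPS mRNAs were lower at an unadjusted p under 0.05. On recovered reads edgeR called 4 MRPL mRNAs and MRPS12 lower (1.31% of all tested genes), and DESeq2 called 16 MRPL mRNAs, MRPS12 and MRPS18B lower (4.35% of all tested genes). The symbols do not follow the structure in every case, since MRPS18A and MRPS30 sit in the large subunit.

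**Figure D3:**
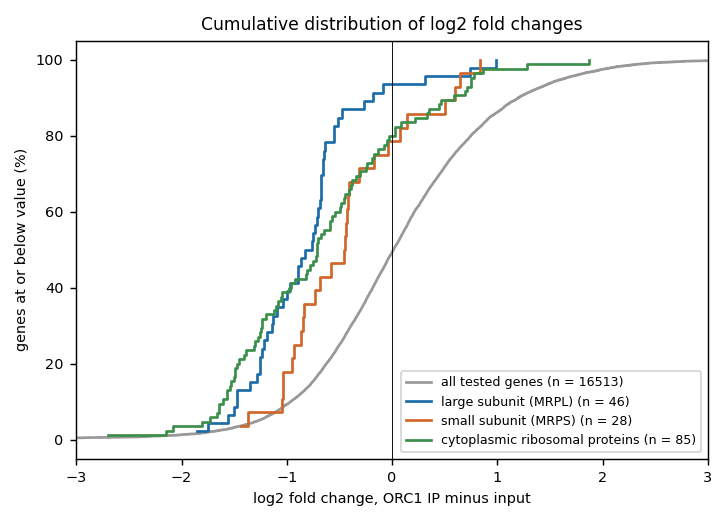
Share of genes (y axis, %) at or below each log2 fold change between ORC1 IP and input (x axis). Curves are for 46 large-subunit and 28 small-subunit mRNAs, 85 genes matched as cytoplasmic ribosomal proteins and all 16513 tested genes. A few of all tested genes lie beyond the axis limits. The large-subunit curve reaches 0 with 43 of 46 mRNAs to its left, and the curve of all genes passes 0 near its middle (49.3%).

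Among the large-subunit mRNAs below the threshold of the test, MRPL36, a small protein with a bacterial counterpart, had 338, 504 and 541 normalised counts in the inputs and 131, 228 and 134 in the ORC1 IPs. The groups did not overlap, and its log2 fold change was -1.50 (limma adjusted p = 0.0509), or -0.83 with GC content and length removed (adjusted p = 0.142). MRPL37, specific to mitochondria, had 2323, 3803 and 3523 in the inputs and 1476, 903 and 1081 in the ORC1 IPs, with a log2 fold change of -1.48 (limma adjusted p = 0.0553).

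The large-subunit proteins picked for their role gave smaller differences. MRPL12, which forms the flexible stalk that recruits translation factors, had a log2 fold change of -0.73 (limma adjusted p = 0.274), and its ORC1 IP 1, at 682 normalised counts, lay above input 1, at 613. With GC content and length removed, MRPL12 was at -0.17 (limma adjusted p = 0.801). MRPL44, a protein with a ribonuclease III fold, had a log2 fold change of -0.69 (adjusted p = 0.286), and MRPL3, the counterpart of a bacterial protein that reaches towards the peptidyl transferase centre, had -0.82 (adjusted p = 0.236). In both, every ORC1 IP lay below every input. Of the mRNAs most abundant in input per kb of exon sequence, MRPL41 and MRPL51 belong to the large subunit, at 1871 and 1793 normalised counts per kb, and their log2 fold changes were -1.14 (adjusted p = 0.0976) and -1.28 (adjusted p = 0.0705). That of MRPL41 was -0.30 with GC content and length removed (limma adjusted p = 0.659).

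The small-subunit mRNA with the lowest fold change was MRPS12, the counterpart of the bacterial protein next to the decoding centre. It had 1165, 2178 and 2140 normalised counts in the inputs and 735, 552 and 671 in the ORC1 IPs, without overlap (log2 fold change -1.44 ± 0.37 SE, limma adjusted p = 0.0524). MRPS16, whose loss impairs mitochondrial translation in people, had a log2 fold change of -0.84 (adjusted p = 0.209), and MRPS22, a mitochondria-specific protein, had -0.46 (adjusted p = 0.492), both without overlap. MRPS34 and MRPS26, also specific to mitochondria, were among the most abundant per kb of exon in input, at 2268 and 1451 normalised counts per kb, yet their log2 fold changes were -0.31 (adjusted p = 0.738) and -0.42 (adjusted p = 0.536). ORC1 IP 1 lay above input 1 for both, and both values changed sign with transcript GC content and length removed, to 0.24 and 0.13, while that of MRPS34 was 0.08 without ORC1 IP 2.

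The MRPS18 paralogs, which share a bacterial ancestor, were spread over the range. MRPS18B, the most abundant of the 76 mRNAs in input per kb of exon (2293 normalised counts per kb), had 2599, 5206 and 4284 normalised counts in the inputs and 1864, 847 and 2150 in the ORC1 IPs, a log2 fold change of -1.36 (limma adjusted p = 0.112). MRPS18A had a log2 fold change of -0.95 (adjusted p = 0.234), with ORC1 IP 1 above input 1, and MRPS18C had -0.68 (adjusted p = 0.335) without overlap. MRPS36, once assigned to the small subunit and since found in the 2-oxoglutarate dehydrogenase complex, did not move one way between replicates. It had 271, 85.1 and 171 normalised counts in the inputs and 42.6, 135 and 77.5 in the ORC1 IPs, so that the difference within replicate 2 (0.66) opposed those within replicates 1 (-2.64) and 3 (-1.13).

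Only 9 of the 74 mRNAs had a log2 fold change above 0, and none of the 9 passed the test in limma, edgeR or DESeq2. MRPL53, a mitochondria-specific protein, had the highest, with 41.2, 41.0 and 35.1 normalised counts in the inputs and 66.8, 105 and 68.6 in the ORC1 IPs. Its groups did not overlap, and its log2 fold change was 0.99 ± 0.44 (SE, limma adjusted p = 0.214). With GC content and length removed it was 1.77 (limma adjusted p = 0.0539). It also had the lowest mean input level of the 74, 39.1 normalised counts.

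MRPS5, the counterpart of a bacterial protein that bears on decoding accuracy, had 1251, 920 and 998 normalised counts in the inputs and 3324, 1378 and 1424 in the ORC1 IPs. ORC1 IP 1 stood above the other ORC1 IPs, and the log2 fold change was 0.83 (limma adjusted p = 0.267). MRPS25, specific to mitochondria, had 899, 900 and 845 in the inputs and 1731, 1505 and 914 in the ORC1 IPs, a log2 fold change of 0.60 (limma adjusted p = 0.364). With GC content and length removed, MRPS5 was at 0.41 and MRPS25 at 0.13 (limma adjusted p = 0.609 and 0.884). The exons of MRPS25 overlap those of NR2C2 on the opposite strand over 7157 bases in GENCODE v44. The sources used here do not say whether the counting used strand, so the counts of MRPS25 are uncertain.

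The remaining high values came from overlapping groups. MRPL1, a protein of the stalk near the exit site for tRNA, had a log2 fold change of 0.74 (limma adjusted p = 0.391), MRPS31 had 0.65 (adjusted p = 0.446) and MRPS15 had 0.50 (adjusted p = 0.534). For MRPS15, ORC1 IPs 1 and 2 were at 2135 and 1910 normalised counts, above all inputs (968 to 1082), and ORC1 IP 3 was at 743, below all of them. Without ORC1 IP 2 the log2 fold changes of MRPL1, MRPS31 and MRPS5 were 1.21, 1.07 and 1.05. Their limma adjusted p were then 0.05005, 0.0754 and 0.0711, where 11.9% of all tested genes were called higher. In that fit MRPS15, MRPS25 and MRPL53 were at 0.30, 0.51 and 0.78.

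By their longest annotated transcript, the mRNAs were short compared with the other genes. That transcript can be of any type and need not be the one present in these cells, as for MRPL42 at 15560 bases. The correction for GC content and length used the same transcript. The longest transcript in GENCODE v44, available for 72 of the 74, had a median of 1716 bases (quartiles 1172 and 2493) against 3283 bases for the 16062 tested genes with a match, and its median GC content was 46.4% against 48.1%. Across all tested genes the log2 fold change followed transcript length with a Spearman's rho of 0.34. Within the 72 mRNAs rho was 0.11 with length, -0.28 with GC content and, over the 74, -0.31 with the mean input level. The sign of the relation to GC content differed between replicates, with 0.19, -0.37 and -0.49 in replicates 1, 2 and 3. These correlations run across genes that share libraries and carry no test. With GC content and length removed from the log2 values, the median log2 fold change of the 72 was -0.70 (all genes -0.01) and 61 lay below 0. Other properties that go with transcript length were not tested.

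**Figure D4:**
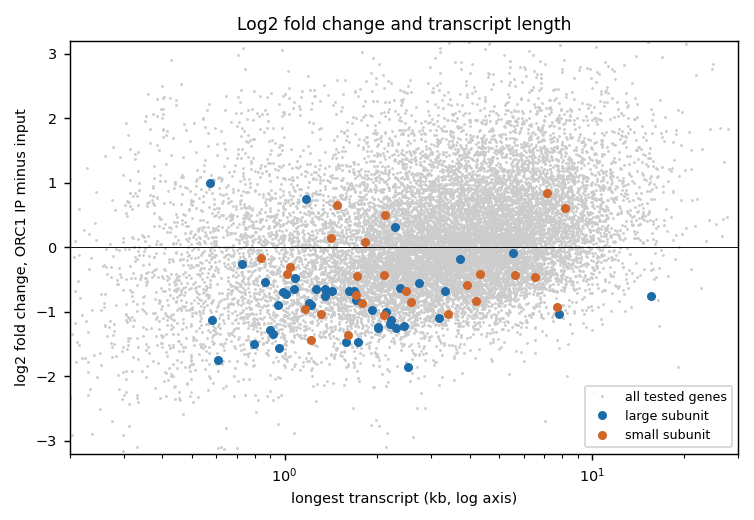
Log2 fold change between ORC1 IP and input (y axis) against the length of the longest transcript (x axis, kb, logarithmic) for all tested genes (grey) and for large-subunit (blue) and small-subunit (orange) mRNAs, with genes beyond the axis limits not shown. The mRNAs lie mostly below 0 at lengths from 574 to 15560 bases, with a rho of 0.11 among themselves against 0.34 over all genes.

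In 25 of the 72 mRNAs, exons overlap those of a gene on the opposite strand. Their median log2 fold change was -0.76 and that of the other 47 was -0.70. Of the called mRNAs MRPL49 is in this group, with 356 bases shared with SYVN1. The overlap was 7016 bases for MRPS22 and 1956 for MRPS18C, whose counts are uncertain for that reason. Reads of the 15 pseudogenes amounted to 0.415% to 0.587% of the reads on the 76 mRNAs, and MRPL3P1 held 50.3% of those pseudogene reads. The sources used here do not say how reads matching several genes were counted.

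Many of the genes share a start region with a neighbour on the other strand. For 26 of the 72 (36.1%) another tested gene started within 1000 bases on the opposite strand in GENCODE v44, against 20.2% of 12537 tested coding genes. The 26 had a median log2 fold change of -0.80, 25 of them below 0, while their partners had a median of 0.03, 12 of them below 0. The mRNA lay below its partner in 22 of 26 pairs, and Spearman's rho between mRNA and partner was 0.38. MRPS11 and MRPL46 are partners of each other, so that pair is counted from both sides in these values. The partners' longest transcripts had a median of 3384 bases.

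Some pairs lay close together and others far apart, and the pairs named next were picked after their values were seen. MRPL49 starts 6 bases from FAU, which codes for a ubiquitin-like protein fused to a cytoplasmic ribosomal protein, and FAU had a log2 fold change of -1.57 (limma adjusted p = 0.0790). MRPL36 starts 41 bases from NDUFS6, a subunit of respiratory complex I, which had -1.54 (adjusted p = 0.0383) and was the only called partner. MRPS11 and MRPL46 are partners of each other, 63 bases apart, at -1.04 and -0.08. MRPL27, at -1.22, starts 13 bases from EME1, a subunit of a DNA structure-specific endonuclease, which had 0.94 (adjusted p = 0.129). MRPS34 and EME2, another such subunit, were at -0.31 and 1.12 (adjusted p = 0.0930), and their exons overlap over 341 bases.

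**Figure D5:**
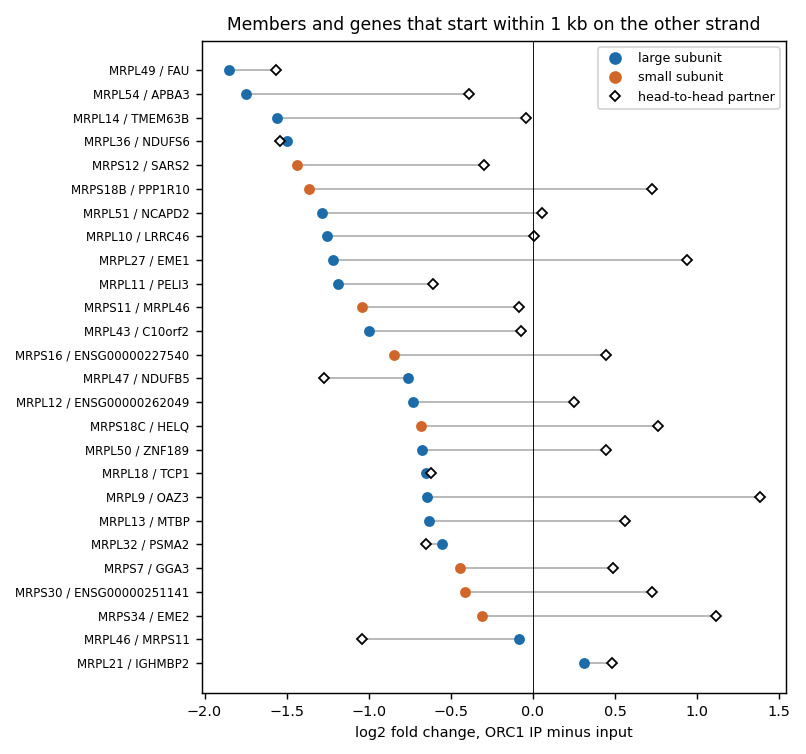
Log2 fold change between ORC1 IP and input (x axis) for the 26 mitochondrial ribosomal protein mRNAs with a gene starting within 1 kb on the other strand (filled, blue for large and orange for small subunit) and for that partner (open diamonds), 1 pair per line. The mRNA lies left of its partner in 22 of 26 pairs, and 25 of the 26 mRNAs but 12 of the 26 partners lie below 0. The pair of MRPS11 and MRPL46 appears from both sides.

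The start regions were searched for motifs of general promoter factors, from 250 bases before to 50 after each start in RefSeq (GRCh38.p14), on both strands. The start regions of MRPL15, MRPL13, MRPS28 and all other genes on their chromosome were left out before matching. The called mRNA MRPL15 was therefore not searched. Sequences were then matched by symbol for 65 of the 74 mRNAs, with 1 to 4 starts each. In all, 9837 tested genes were searched. The ETS factor motif CCGGAAG was found in 28 of the 65 (43.1%) against 21.9% of all genes searched. The YY1 motif AAGATGGCG was found in 12 (18.5%) against 4.69%, the NRF1 motif in 7 (10.8%) against 13.04%, CCAAT in 23 (35.4%) against 43.2% and TATAAA in 3 (4.62%) against 8.12%. Matches may overlap each other. The median log2 fold change was -0.74 with and -0.70 without the ETS motif, and -0.72 with and -0.71 without the YY1 motif. A relation of these motifs to the level in ORC1 IP was not tested.

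The 120 bases before the RefSeq start are shown for 4 genes on their own strand, 5′ to 3′, with the ETS and YY1 motif letters in capitals. Matches to the other motifs, as to the NRF1 motif in MRPL36, were not marked. MRPL54 (chr19:3762562-3762681, plus strand), a called mRNA, and MRPL53 (chr2:74472681-74472800, minus strand), the mRNA with the highest fold change, each hold the ETS motif, in MRPL54 as its reverse complement. MRPL36 (chr5:1799838-1799957, minus strand) and MRPL52 (chr14:22829767-22829886, plus strand) are the 2 mRNAs with the YY1 motif in this stretch, in MRPL36 as its reverse complement and in MRPL52 in 2 copies. The stretch of MRPL36 lies inside its gene in GENCODE v44 (chr5:1798385-1801366). The RefSeq start behind it is thus not the start used above for the pair with NDUFS6. MRPL52, named for its motif, had a log2 fold change of -1.24.
MRPL54: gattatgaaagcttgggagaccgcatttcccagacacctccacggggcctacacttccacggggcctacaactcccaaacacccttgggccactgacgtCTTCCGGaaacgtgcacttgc
MRPL53: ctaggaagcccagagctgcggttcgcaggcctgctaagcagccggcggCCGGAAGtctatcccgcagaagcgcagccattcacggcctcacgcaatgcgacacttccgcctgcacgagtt
MRPL36: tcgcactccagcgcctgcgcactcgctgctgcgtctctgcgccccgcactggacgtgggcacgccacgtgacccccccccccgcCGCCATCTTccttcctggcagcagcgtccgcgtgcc
MRPL52: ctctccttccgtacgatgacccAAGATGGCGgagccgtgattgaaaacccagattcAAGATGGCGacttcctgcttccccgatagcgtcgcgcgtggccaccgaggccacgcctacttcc
MRPL54 and MRPL53, at log2 fold changes of -1.75 and 0.99, were picked for these values among the mRNAs with the ETS letters. Their contrast therefore follows from the choice.

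Further genes of mitochondrial translation were counted from lists by role, and limma called none of them with all libraries. Without ORC1 IP 2 it called 3 lower, namely MRP63 (-1.60, adjusted p = 0.00648), NGRN (-1.07, adjusted p = 0.0499) and TFB2M (-1.23, adjusted p = 0.0317), where 6.38% of all tested genes were lower. It also called 1 higher, LRPPRC of the translation factor list (1.62, adjusted p = 0.0187; named after its value was seen), where 11.9% of all tested genes were higher. With all libraries, 9.45% of all tested genes were lower and 12.2% higher at an unadjusted p under 0.05, against which the counts of each list stand. Among 7 ribosomal proteins with other symbols, the median log2 fold change was -0.50, 5 were below 0, and 2 were lower at an unadjusted p under 0.05. MRP63, a large-subunit protein, was the lowest at -1.04 (limma adjusted p = 0.216) and PTCD3, a small-subunit protein with RNA-binding repeats, the highest at 0.55 (adjusted p = 0.459). Of 26 assembly factors, 20 were below 0 with a median of -0.35, and 4 were lower and 0 higher at an unadjusted p under 0.05. NGRN, needed for the mitochondrial large-subunit rRNA, was the lowest at -1.16 (adjusted p = 0.0848), and MTERFD2, which brings an rRNA methyltransferase to the ribosome, the highest at 0.81 (adjusted p = 0.253).

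The 16 translation factors had a median log2 fold change of -0.07, with 9 below 0, and 1 was lower and 2 were higher at an unadjusted p under 0.05, shares near those of all tested genes. TSFM, an elongation factor, was the lowest at -1.002 (limma adjusted p = 0.171), and MTIF3, an initiation factor, the highest at 1.23 (adjusted p = 0.153). The 5 factors of mitochondrial transcription had a median of 0.14, with TFB2M, which opens mitochondrial promoters, at -1.25 (adjusted p = 0.0718), the only one at an unadjusted p under 0.05, and MTERF at 0.56 (adjusted p = 0.455). On recovered reads edgeR called 0 genes of these lists, where 1.31% of all tested genes were called lower and 2.57% higher. DESeq2 called NGRN and TFB2M, where 4.35% of all tested genes were called lower and 7.67% higher. The differences between these lists and the mitochondrial ribosomal protein mRNAs were not tested.

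The rRNAs of the same particle were dominated by single libraries. The large-subunit rRNA MT-RNR2 held 21867, 8397 and 18473 RPM in the inputs and 1919, 30078 and 1011 in ORC1 IPs 1 to 3, and the small-subunit rRNA MT-RNR1 held 6768, 4076 and 5554 and then 2771, 9709 and 865. ORC1 IP 2 was the highest library for both rRNAs and also the highest ORC1 IP for the summed mRNAs, at 3446 RPM. The log2 fold changes were -1.74 ± 1.93 for MT-RNR2 (SE, limma adjusted p = 0.651) and -0.69 ± 1.39 for MT-RNR1 (SE, limma adjusted p = 0.819). Without ORC1 IP 2 MT-RNR2 was called lower, at -2.90 (limma adjusted p = 0.00540), and without ORC1 IP 3 the log2 fold change of MT-RNR1 was 0.05.

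The genes matched by symbol as cytoplasmic ribosomal proteins, 85 in number, had a median log2 fold change (-0.71) close to that of the mitochondrial mRNAs (-0.72), but spread more. The 85, called cytoplasmic mRNAs here, include the pseudogene RPL27AP (-1.81) and paralogs such as RPL3L and RPL22L1. They ranged from -2.70 for RPS29 (limma adjusted p = 0.00902) to 1.87 for RPS24 (adjusted p = 0.102). RPS29 and RPL35A (the latter named after its value was seen) were called lower and none was called higher, and 68 lay below 0. Their replicate medians were -0.09, -0.55 and -1.55, where those of the mitochondrial mRNAs were -0.44, -1.01 and -0.88. All 3 ORC1 IPs lay below all 3 inputs for 34 of 85 cytoplasmic and 42 of 74 mitochondrial mRNAs. The cytoplasmic mRNAs summed to 28665 ± 4708 RPM in input and 19685 ± 9136 in ORC1 IP (SD, n = 3), with overlap between the groups. The overlap came from ORC1 IP 2 (29141 RPM), since ORC1 IPs 1 and 3 (19007 and 10908 RPM) lay below every input (24976 to 33967 RPM), as the mitochondrial sums did in all 3 ORC1 IPs. These differences between the families were not tested.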

How the data were processed

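Values came from 3 input and 3 ORC1 IP libraries. Per the labels and the methods of the study, the authors used Trimmomatic for trimming, STAR for alignment to hg19 and featureCounts for counts per gene, which DESeq2 scaled by size factors. The deposited values are thus a normalised signal per gene and library. The authors' deposited table also holds a mean signal, log2 fold changes with standard errors, a Wald score and p-values, none of which were used. All values (100%) of each library were whole multiples of its smallest nonzero value within 0.001, so whole reads were recovered, and edgeR on them called 216 genes lower and 425 higher.

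Differences in log2(normalised count + 1) were tested with limma 3.58.1 in R 4.3.3 (moderated test with intensity trend, 3 against 3, no block) for 16513 genes with a mean of at least 10, with Benjamini-Hochberg adjustment over all of them and a threshold of 0.05. Fold changes on this scale understate changes of low genes. Alternatives were pseudocounts of 0.5 and 5, no filter and a mean of 50, scaling by total reads, TMM and upper quartile, edgeR 4.0.16 and DESeq2 1.42.0 on recovered reads, limma without trend, a replicate block, a loess correction (span 0.3) for transcript GC content and length, and leaving out each library. Scripts were tested on simulated data.

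The labels give an input and an ORC1 IP the same RIP replicate number, and the correlation across genes between their departures from the group means was -0.322, -0.240 and 0.215 for replicates 1, 2 and 3. P-values measure the spread between these libraries, described in the study as replicate experiments. No library repeated another of its group (chi-square per degree of freedom 49.5 to 676). Gene properties came from GENCODE v44 (GRCh38) by Ensembl identifier, since no hg19 annotation was used here, and start regions from RefSeq. MRPL45 and MRPS21 had no match in GENCODE v44. The mRNAs and the lists by role were chosen with earlier results of these data known. Named mRNAs were those called, the 6 highest and 6 lowest fold changes, the 5 most abundant per kb of exon in input, 8 picked by role, the MRPS18 paralogs and those that missed the filter, and for lists the highest and lowest gene.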

Additional observations from a re-analysis of the deposited data

How the results depend on the processing

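The median log2 fold change of the 74 mRNAs stayed below 0 under every alternative run, at -0.94 to -0.68, as did the medians of the MRPL mRNAs (-1.01 to -0.75) and the MRPS mRNAs (-0.66 to -0.39). Scaling by total reads moved the median of all genes to -0.19, from 0.01, and left the mRNAs 0.74 below it. The ratio of the summed reads was 0.466 (without ORC1 IP 2) to 0.590 (without ORC1 IP 3). The number of mRNAs called lower, 4, depended on the setting. It was 2 when scaled by total reads (MRPL37 and MRPL49; 0.581% of all tested genes called lower), 7 with upper quartile scaling (1.7%), 18 by DESeq2 (4.35%), 5 by edgeR (1.31%) and 0 by limma without trend (0.581%, with 28 mRNAs lower and 1 higher at an unadjusted p under 0.05). With the replicate block limma called 3 (1.16%) and edgeR 2 (1.11%), and with GC content and length removed limma called 0 without the block (0.218%) and 0 with it (0.0249%, with 33 and 24 lower, 1 and 1 higher at an unadjusted p under 0.05). Leaving out 1 library gave 0 to 21, as 0 without input 2 (0.236%), input 3 (0.139%) or ORC1 IP 3 (0.139%), 2 without ORC1 IP 1 (0.721%), 5 without input 1 (0.999%) and 21 without ORC1 IP 2 (6.38%). No setting called an mRNA higher, by limma, edgeR or DESeq2 (0 to 3 higher at an unadjusted p under 0.05). The percentages given with the settings are shares of all tested genes called lower at an adjusted p under 0.05. At an unadjusted limma p under 0.05 the share is given for the main fit alone (9.45% lower, 12.2% higher). The log2 fold change of MRPS34 changed sign to 0.24 with GC content and length removed, with or without the block, and to 0.076 without ORC1 IP 2, that of MRPS26 to 0.13 with GC content and length removed, with or without the block, and that of MT-RNR1 to 0.052 without ORC1 IP 3 (-1.25 without ORC1 IP 2). The cause of these changes was not tested. Of the other values of single genes under alternatives, 690 kept their direction and side of the threshold, 26 passed it newly and 38 no longer passed it. Depth limits mainly MRPL30 and MRPS24, with 0 to 30 reads per library, and the lack of a control antibody library limits every value.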
